A study of Sus scrofa with 61 samples.

Results

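Myostatin (MSTN), its close relative GDF11, the activin subunit INHBA, the ligands BMP4, TGFB1, TGFB2 and TGFB3, the secreted antagonist follistatin (FST) and the receptor ACVR2B were followed in longissimus muscle of pig fetuses near the end of gestation. Members were the probes that carry one of these 9 gene symbols in the array's own annotation or in the study's lists. The 9 genes were among 11121 named on the array, and had 27 of its 60305 probes. Of the 27, 24 were kept after a filter on dim probes, among 42436 kept probes in all, and each of the 9 genes had at least 1 kept probe. To be kept, a probe had to be marked by the scanner software as well above background in 1 or more of the 8 groups, on 80% of that group's arrays or more. The 3 probes that failed were GDF11 A_72_P656351, well above background on 25 of 61 arrays, INHBA A_72_P442262 on 21 and TGFB3 A_72_P030601 on 4.

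The study asked how muscle matures before birth in breeds that differ in piglet survival, with Meishan fetuses surviving birth better than Large White. LW fetuses were purebred Large White (8 at day 90 of gestation, 9 at day 110) and MS fetuses purebred Meishan (8 and 7). LWMS crossbreds came from MS sows mated to LW (8 and 8), and MSLW crossbreds from LW sows mated to MS (8 and 5). All fetuses were male, and the labels name no treatment. Sows received mixed semen, so that purebred and crossbred fetuses shared litters, and the litter of a fetus is not in the labels used here, so that littermates counted as separate samples. Each array carried the Cy3-labelled RNA of 1 fetus, and 34347 to 45684 spots per array were well above background (median 43017 at day 90 and 41318 at day 110). Values are quantile-normalized log2 intensities. They compare 1 probe between fetuses and do not rank one gene against another. Muscle identity was clear, since 14 of 14 measured muscle fibre markers were well above background on all arrays.

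Myostatin is a secreted brake on muscle growth, made by muscle itself, and animals that lack it have enlarged muscles. It and GDF11 belong to the TGF-beta superfamily, whose ligands are made as precursors, cut by proteases, and bind pairs of type II and type I receptors that phosphorylate SMAD proteins. ACVR2B is the type II receptor that myostatin, GDF11 and activins share. Follistatin binds these ligands outside the cell and keeps them from the receptor. The 3 TGF-beta ligands are best known in muscle for their action on connective tissue and on myoblast differentiation, and BMP4 signals through a separate SMAD branch.

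Probes on which the results turn are shown 5′ to 3′ as the array's scanner files give them.
GDF11 A_72_P414503: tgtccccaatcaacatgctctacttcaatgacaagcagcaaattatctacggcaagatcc
GDF11 O7572: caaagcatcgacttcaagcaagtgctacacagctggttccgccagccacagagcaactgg
ACVR2B O5503: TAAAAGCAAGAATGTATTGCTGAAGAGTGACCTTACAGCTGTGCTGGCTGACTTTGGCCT
FST A_72_P640386: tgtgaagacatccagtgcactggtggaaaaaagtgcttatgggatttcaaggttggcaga
TGFB1 A_72_P442849: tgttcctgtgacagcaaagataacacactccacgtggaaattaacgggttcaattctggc
TGFB2 A_72_P176121: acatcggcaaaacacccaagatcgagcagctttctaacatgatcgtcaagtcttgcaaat
Both GDF11 probes are shown because O7572 moved against A_72_P414503 in MS. The ACVR2B sequence is all in capitals because the other ACVR2B probe, A_72_P088631, has the same 60 bases. The FST, TGFB1 and TGFB2 probes are shown because probes of these genes differed in whether the breeds separated at day 110. All 24 kept probes were read on every array. They were well above background on all 61, except 3 GDF11 probes (A_72_P414503 on 44, O7572 on 49, A_72_P600818 on 31) and BMP4 A_72_P661557 (on 59).

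From day 90 to day 110, transcripts of myostatin, follistatin, TGFB1, TGFB2 and TGFB3 fell in all 4 genotypes, and ACVR2B rose in LW, MS and LWMS on both its probes and in MSLW on 1. In LW, 17 of 24 member probes passed the 1% threshold (limma, moderated two-sided test, Benjamini-Hochberg over all kept probes), where 45.3% of all kept probes passed. Of the 17, 2 were higher at day 110 (21.8% of all kept probes) and 15 lower (23.5%). In MS, 21 of 24 passed (56.7% of all), 5 of them higher (28.6%) and 16 lower (28.1%). In LWMS it was 19 of 24 (50.9%), 2 higher (25.1%) and 17 lower (25.7%). In MSLW it was 18 of 24 (44.6%), 1 higher (20.8%) and 17 lower (23.8%). Probes of 1 gene measure the same RNA, and the count of genes is smaller. By the brightest kept probe of each gene, 6 of 9 passed in LW (1 higher, 5 lower) and 8 in MS (2 and 6). It was 7 in LWMS (1 and 6) and 6 in MSLW (0 and 6). The values of the ages did not overlap for 11 of the 24 in LW (23.3% of all kept probes), 19 in MS (37.9%), 16 in LWMS (30.4%) and 15 in MSLW (28%). Most of the called member probes were lower at day 110, while on the array as a whole higher and lower calls were about as many. The median change of the member probes was -0.67 on the log2 scale for LW and -1.09 for MS, and for the crosses -0.73 (LWMS) and -0.86 (MSLW), while the median over all kept probes lay between 0.02 and 0.04. Quantile-normalized values are relative to the rest of the array, and a lower value can mean fewer cells of a type or less RNA per cell, which cannot be told apart here.

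**Figure D1:**
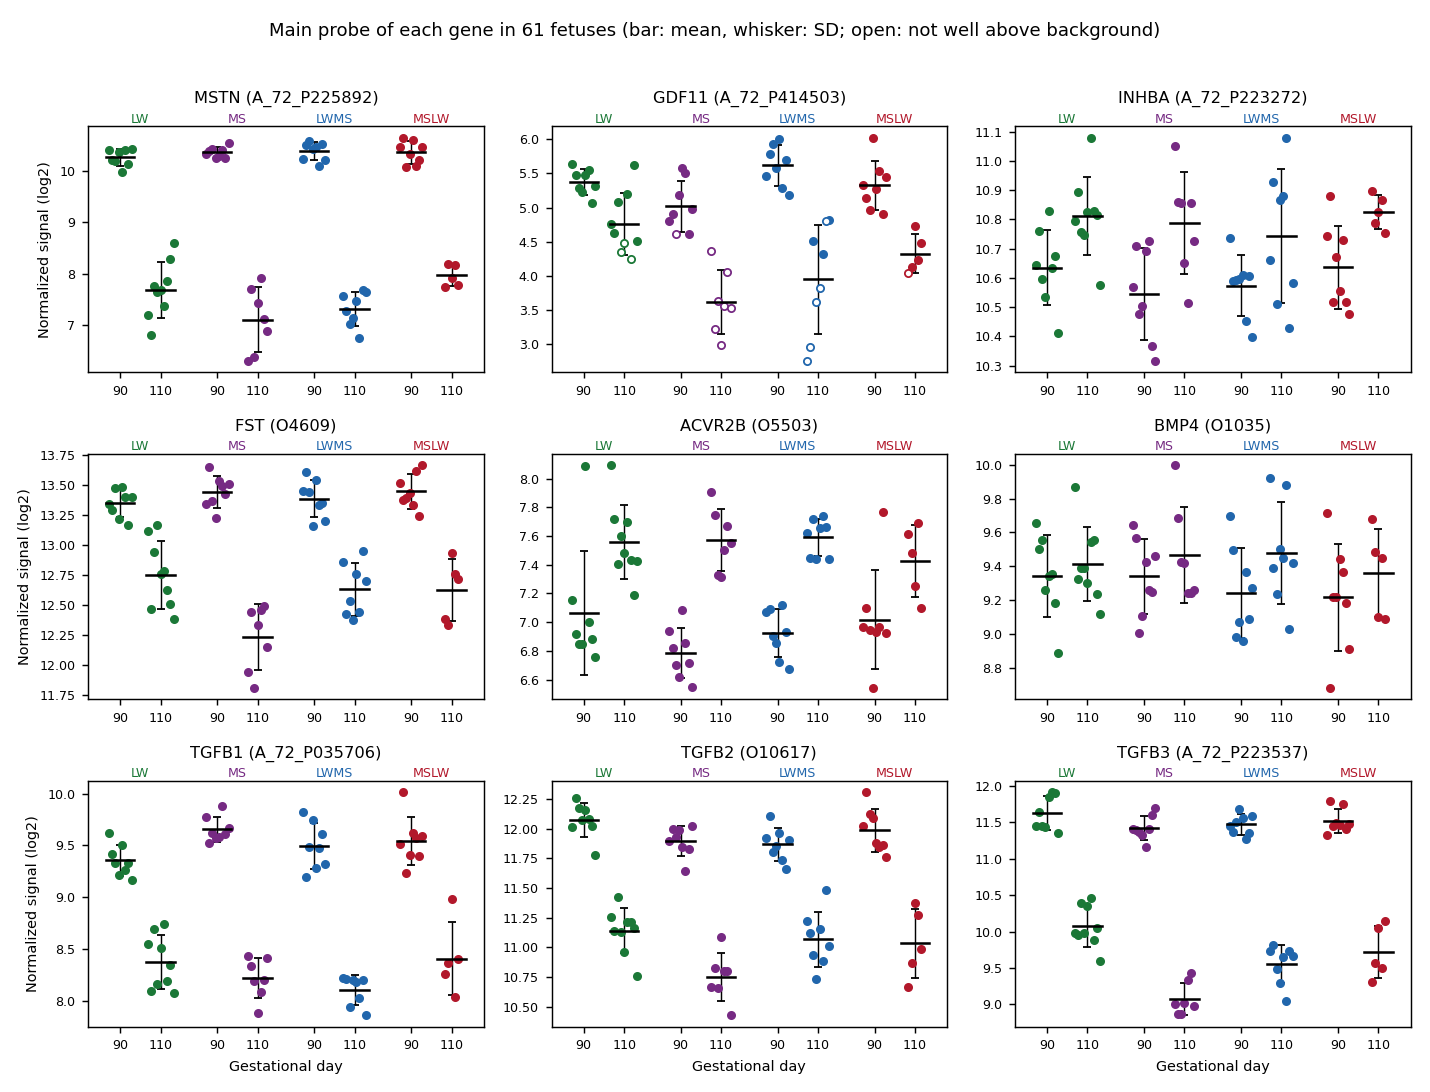
Quantile-normalized log2 intensity of the main probe of each gene in every fetus, by genotype and day of gestation; each point is 1 fetus (open where the probe was not well above background) and bars are group means ± SD. MSTN and TGFB3 show no overlap between the ages in any genotype, and ACVR2B lies higher at day 110, with 1 LW fetus of day 90 at 8.09.

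Myostatin showed the largest fall of the 9 main probes (the main probe is the kept probe with the highest mean over all arrays). In LW its main probe A_72_P225892 ranged from 9.96 to 10.43 at day 90 (median 10.29) and from 6.81 to 8.60 at day 110 (median 7.68). In MS it ranged from 10.24 to 10.53 (median 10.35) and then from 6.31 to 7.93 (median 7.13). The ages did not overlap in either breed, and fetuses of day 110 were more spread out than those of day 90, with an SD of 0.54 against 0.17 in LW and 0.62 against 0.10 in MS. In LWMS the values went from 10.08 to 10.57 (median 10.44) to 6.76 to 7.68 (median 7.38). In MSLW they went from 10.07 to 10.64 (median 10.38) to 7.75, 8.20, 7.93, 8.17 and 7.79 in the 5 fetuses of day 110. All 5 of these late MSLW fetuses lay above the highest late LWMS fetus.

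Expressed as change, myostatin fell by 2.56 on the log2 scale in LW, which is 5.91-fold (SE 0.17, limma adjusted p = 6.3e-20). The MS fetuses fell by 3.23, or 9.41-fold (SE 0.18, adjusted p = 2.91e-23). The LWMS fetuses fell by 3.05, or 8.26-fold (SE 0.17, adjusted p = 1.15e-22), and the MSLW fetuses fell by 2.38, or 5.21-fold (SE 0.20, adjusted p = 9.1e-16). The other 2 myostatin probes, A_72_P165466 and O14998, which share 57 bases, changed by -2.19 to -2.92, and their groups did not overlap either. Over the 61 fetuses the 3 probes correlated at r = 0.989 to 0.997, and at 0.85 to 0.92 once group and slide means were removed. These are correlations between probes of the same RNA and are given as a description.

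GDF11, a secreted relative that can bind the same receptor as myostatin, was dim, and its probes disagreed. Probe A_72_P414503 cleared background at day 90 on 8 of 8 LW, 7 of 8 MS, 8 of 8 LWMS and 8 of 8 MSLW arrays, and at day 110 on 6 of 9, 0 of 7, 3 of 8 and 4 of 5. Its median went from 5.39 to 4.63 in LW, from 4.94 to 3.56 in MS, from 5.63 to 4.07 in LWMS and from 5.30 to 4.23 in MSLW. The ages did not overlap in MS, LWMS and MSLW, and overlapped in LW. No late MS array was well above background, so the size in MS is a bound. By the rule given with the processing, the probe was at least 1.88-fold lower at day 110 in MS (limma adjusted p = 2.91e-07, measured means 5.02 and 3.62). The probe changed by -1.67 in LWMS (SE 0.22, adjusted p = 1.98e-09) and -1.01 in MSLW (SE 0.25, adjusted p = 0.000507), and the change of -0.61 in LW missed the threshold (SE 0.21, adjusted p = 0.0118). These sizes are uncertain, since some late arrays of each of these genotypes were not well above background.

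The GDF11 probe O7572, whose sequence is shown above, went the other way in MS. There it ranged from 3.95 to 4.76 at day 90 (median 4.32) and from 4.86 to 5.45 at day 110 (median 4.98), with 6 of 8 and 6 of 7 arrays well above background. The groups did not overlap, and the difference of 0.70 passed (SE 0.21, limma adjusted p = 0.00308), whereas the differences of -0.10 in LW, 0.22 in LWMS and 0.39 in MSLW did not. The remaining kept probe, A_72_P600818, was well above background on 0 of 8 LWMS arrays at day 110 and lay at least 1.37-fold lower there than at day 90 (adjusted p = 3.96e-05), and in MSLW it was lower at day 110 (adjusted p = 0.0082), where 1 of 5 arrays was well above background, so that no size is given. It passed the filter only through day 90, in LW (7 of 8 arrays) and LWMS (8 of 8). Its falls are therefore not independent of the filter. They are among the lower calls counted above for LWMS and MSLW. Between A_72_P414503 and O7572 the correlation over 61 fetuses was -0.34, and 0.11 after group and slide means were removed. A direction for GDF11 therefore holds per probe, not for the gene.

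**Figure D2:**
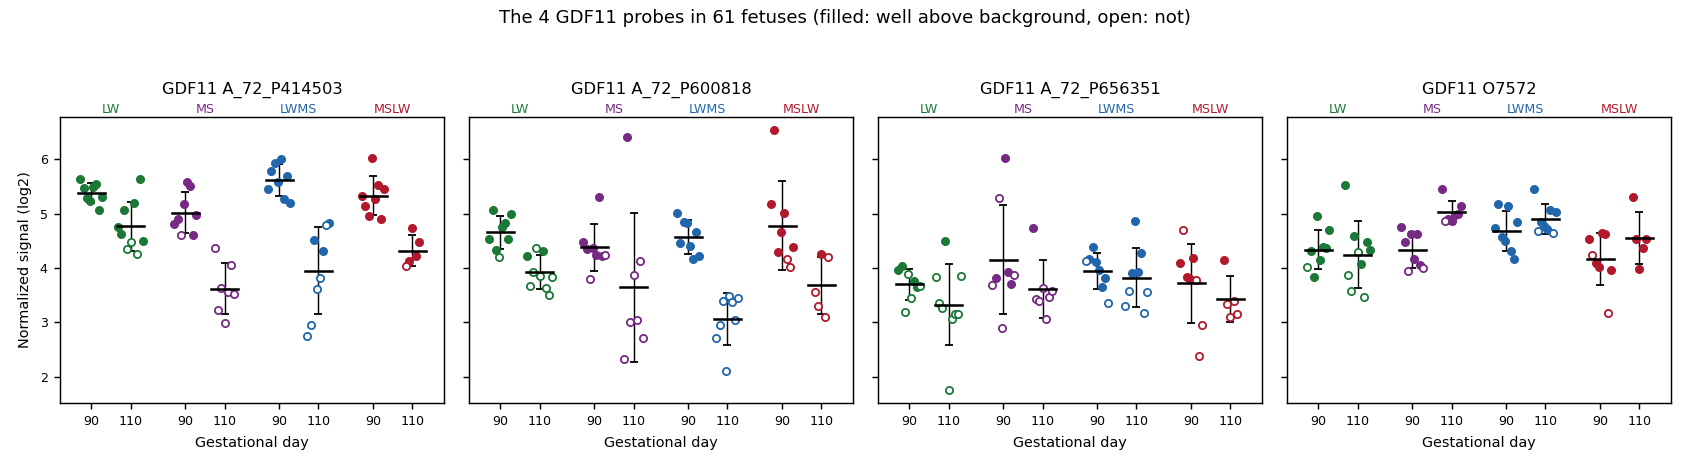
Quantile-normalized log2 intensity of the GDF11 probes in every fetus by group, with filled points for arrays on which the probe was well above background and open points for the rest. A_72_P414503 sits lower at day 110 with 0 of 7 MS arrays well above background, while O7572 sits higher in the late MS fetuses.

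The TGF-beta ligands fell together, TGFB3 the furthest. TGFB3, main probe A_72_P223537, ranged from 11.36 to 11.92 (median 11.55) at day 90 and from 9.59 to 10.46 (median 9.98) at day 110 in LW. In MS it ranged from 11.16 to 11.69 (median 11.40) and then from 8.86 to 9.43 (median 9.01). The ages were apart in every genotype, and the late MS fetuses all lay below the late LW fetuses. The medians of the crosses were between those of the breeds, with values from 9.04 to 9.81 (median 9.66) in late LWMS and at 9.31, 9.57, 10.04, 9.50 and 10.14 in late MSLW fetuses. TGFB3 changed by -1.55 (LW, SE 0.11, limma adjusted p = 4.37e-18), -2.35 (MS, SE 0.12, adjusted p = 1.23e-24), -1.92 (LWMS, SE 0.12, adjusted p = 2.11e-21) and -1.81 (MSLW, SE 0.13, adjusted p = 1.11e-17). The other 2 kept probes, A_72_P621617 and O11056, changed by -1.41 to -2.27 on the log2 scale across the genotypes, with no overlap between ages. O11056 shares 57 bases with the main probe.

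TGFB1, the ligand best known for driving matrix production, had medians of 9.33 and 8.34 at day 90 and day 110 in LW on its main probe A_72_P035706, and of 9.62 and 8.20 in MS. The corresponding medians were 9.48 and 8.19 in LWMS and 9.54 and 8.36 in MSLW. No late fetus reached the lowest early fetus of its genotype. The changes were -0.98 (LW, SE 0.10), -1.43 (MS, SE 0.11), -1.39 (LWMS, SE 0.11) and -1.14 (MSLW, SE 0.12), with limma adjusted p of 6.58e-12 or less. Probe A_72_P442849 changed by -0.78, -1.26, -1.31 and -1.05 in the same order of genotypes, and all 4 passed.

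TGFB2 fell by a similar amount in each genotype. Its main probe O10617 had medians of 12.08 and 11.16 in LW, 11.91 and 10.80 in MS, 11.88 and 11.06 in LWMS and 11.95 and 10.99 in MSLW. The ages did not overlap. The changes were -0.93 (LW, SE 0.09), -1.14 (MS, SE 0.10), -0.80 (LWMS, SE 0.09) and -0.95 (MSLW, SE 0.11), all past the limma threshold, and the other 2 probes changed by -0.68 to -1.04.

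INHBA and BMP4 moved little. INHBA encodes the subunit of activin A. Its 1 kept probe, A_72_P223272, ranged from 10.32 to 10.73 at day 90 (median 10.54) and from 10.52 to 11.05 at day 110 (median 10.86) in MS, and this overlapping rise of 0.24 passed (SE 0.08, limma adjusted p = 0.00703). The differences of 0.18 in LW (adjusted p = 0.0427), 0.17 in LWMS (0.057) and 0.19 in MSLW (0.0658) did not. The MS call was lost when the filter on dim probes was left out and when the background was corrected by normexp, at differences of 0.24 and 0.22. BMP4, main probe O1035, had group medians between 9.18 and 9.45 and passed in no age comparison, with differences from 0.07 to 0.24. Its probe A_72_P440801 rose by 0.51 in MS (SE 0.14, adjusted p = 0.00192), from a median of 6.98 to 7.46, and its A_72_P661557 did not pass.

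**Figure D3:**
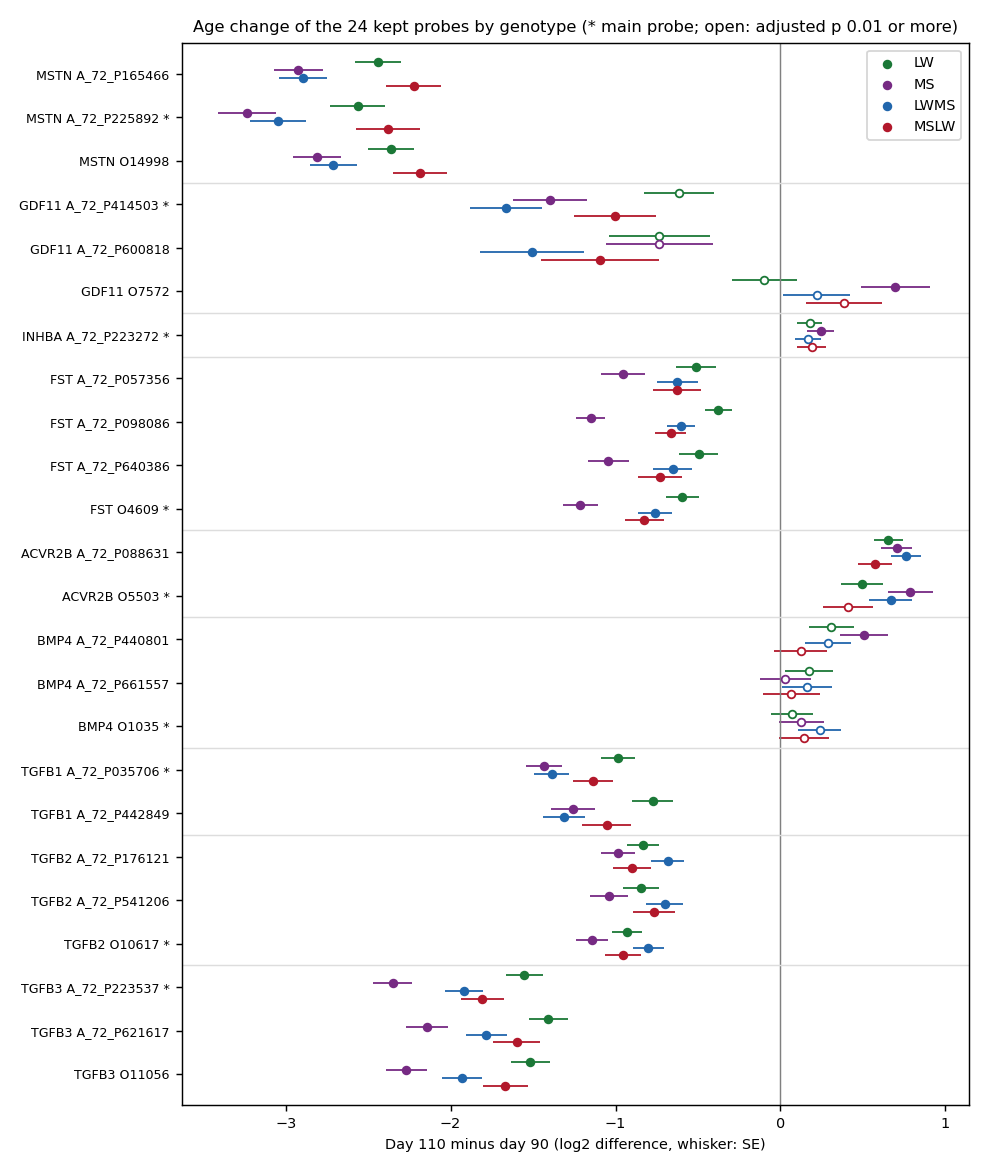
Change from day 90 to day 110 in each genotype, as a log2 difference with its SE, for every kept probe of the 9 genes; filled markers passed 1% in limma. MSTN changed by -2.19 to -3.23 across probes and genotypes, and both ACVR2B probes lie above 0.

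Follistatin, the antagonist of myostatin and activins, fell too. On its main probe O4609 the LW fetuses ranged from 13.17 to 13.49 (median 13.37) at day 90 and from 12.39 to 13.17 (median 12.76) at day 110. The MS fetuses ranged from 13.22 to 13.65 (median 13.46) and then from 11.80 to 12.49 (median 12.34), so that the ages touched in LW and stood apart in MS. Late LWMS fetuses had a median of 12.62 and the late MSLW fetuses read 12.38, 12.33, 12.93, 12.76 and 12.72. The changes were -0.60 (LW, SE 0.10, limma adjusted p = 8.57e-07), -1.21 (MS, SE 0.11, adjusted p = 4.55e-15), -0.76 (LWMS, SE 0.10, adjusted p = 4.96e-09) and -0.82 (MSLW, SE 0.12, adjusted p = 2.36e-08). All 4 follistatin probes passed in all 4 genotypes.

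ACVR2B, the shared type II receptor, rose with age. Its probe A_72_P088631 went from a median of 6.76 to 7.45 in LW, with 6.66 and 7.42 in MS, 6.74 and 7.52 in LWMS and 6.74 and 7.27 in MSLW. The ages were apart in LW, MS and LWMS and met in MSLW, where the highest early fetus and the lowest late fetus were both at 7.08. This probe rose by 0.65 in LW (SE 0.09), 0.71 in MS (SE 0.09), 0.76 in LWMS (SE 0.09) and 0.57 in MSLW (SE 0.10, limma adjusted p = 4.41e-06). The main probe O5503, with the same 60 bases, rose by 0.50 in LW (adjusted p = 0.000769), 0.79 in MS (adjusted p = 1.2e-06) and 0.67 in LWMS (adjusted p = 1.47e-05), and its difference of 0.41 in MSLW did not pass (adjusted p = 0.0179).

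Although they hold the same bases, the ACVR2B probes correlated at r = 0.82 over 61 fetuses and at 0.30 after group and slide means were removed, as a description of 2 spots on the same arrays. On O5503, LW replicate 5 of day 90 read 8.09 where the next LW fetus of that age read 7.16, and MSLW replicate 7 of day 90 read 7.77 where the next read 7.10. On A_72_P088631 the same fetuses read 6.77 and 6.54, within their groups. Without LW replicate 5 the O5503 change in LW was 0.64 (adjusted p = 1.75e-06), and without MSLW replicate 7 the change in MSLW was 0.52 and passed (adjusted p = 0.00171).

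Between the breeds, all kept TGFB3 probes and most follistatin and TGFB2 probes were lower in MS than in LW fetuses at day 110, as was 1 probe each of myostatin, GDF11 and TGFB1, and no member probe passed at day 90. All MS fetuses came from MS sows and all LW fetuses from LW sows, so that fetal breed and sow breed cannot be told apart in this comparison. At day 90, 0 of 24 member probes passed in limma (5 at an unadjusted p under 0.05), where 12.8% of all kept probes passed. At day 110, 12 of 24 passed, where 29% of all kept probes passed. Of the 12, 11 were lower in MS (15.2% of all kept probes) and 1 was higher (13.7%). The median of the member probes at day 110 was -0.36 (MS minus LW), beside 0.01 over all kept probes. The ranges of MS and LW did not overlap for 4 of the 24 at day 110, against 8.27% of all kept probes, namely the 3 TGFB3 probes and FST A_72_P098086. By main probe, MSTN, GDF11, FST, TGFB2 and TGFB3 were lower in late MS fetuses, and INHBA, ACVR2B, BMP4 and TGFB1 did not pass.

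TGFB3 had the clearest breed difference at day 110, at -1.0 (SE 0.12, limma adjusted p = 5.18e-10) on the main probe and at -1.05 and -1.0 on A_72_P621617 and O11056. At day 90 the main probe differed by -0.20 (adjusted p = 0.234). The 3 TGFB3 probes, FST A_72_P098086 and GDF11 A_72_P414503 are on lists that the study chose from these samples, so their directions are not independent evidence. GDF11 A_72_P414503 was at least 1.58-fold lower in late MS than late LW fetuses (adjusted p = 2.86e-05, with 0 of 7 MS and 6 of 9 LW arrays well above background), but O7572 was 0.78 higher in MS (SE 0.20, adjusted p = 0.00155). The mean over the 3 kept GDF11 probes differed by -0.21 and did not pass (adjusted p = 0.28).

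Follistatin A_72_P098086 read 10.28 to 10.89 (median 10.56) in late LW fetuses and 9.53 to 10.14 (median 9.96) in late MS fetuses, with no overlap and a difference of -0.69 (SE 0.08, limma adjusted p = 1.9e-09). The main probe O4609 differed by -0.52 (SE 0.10, adjusted p = 5.14e-05) and A_72_P640386 by -0.50 (adjusted p = 0.000559), while A_72_P057356, at -0.39, missed the threshold (adjusted p = 0.012).

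Myostatin was lower in late MS fetuses on its main probe, at -0.58 (SE 0.17, limma adjusted p = 0.00552), with overlapping ranges. This SE rests on 1 estimate of the spread shared by all 8 groups. The SD was 0.54 in late LW and 0.62 in late MS fetuses, against 0.17 and 0.10 at day 90. The p-value therefore does not measure the spread of the late fetuses alone, which was larger. The other 2 probes were at -0.33 (adjusted p = 0.0624) and -0.31 (adjusted p = 0.0744) and did not pass. The myostatin call was also lost when LW and MS fetuses alone were fitted (difference -0.58, adjusted p = 0.0234) and when the 3 probes were averaged (-0.41, adjusted p = 0.0198). At day 90 the main probe differed by 0.09 (adjusted p = 0.785).

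TGFB2 differed by -0.39 in late MS fetuses on O10617 (SE 0.10, limma adjusted p = 0.000867) and by -0.47 on A_72_P541206 (adjusted p = 0.000665), but A_72_P176121 was at -0.10 (adjusted p = 0.434). TGFB1 A_72_P442849 was at -0.48 (SE 0.13, adjusted p = 0.00247), and its main probe at -0.15 (adjusted p = 0.265). The latter was at 0.30 in the other direction at day 90 (SE 0.11, adjusted p = 0.0379), which passed the threshold with the deposited values, the median spot signal and the normexp background correction, with differences of 0.31 to 0.34. ACVR2B O5503 differed by 0.01 at day 110 (SE 0.13), INHBA by -0.02 (SE 0.08) and BMP4 O1035 by 0.05 (SE 0.13).

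**Figure D4:**
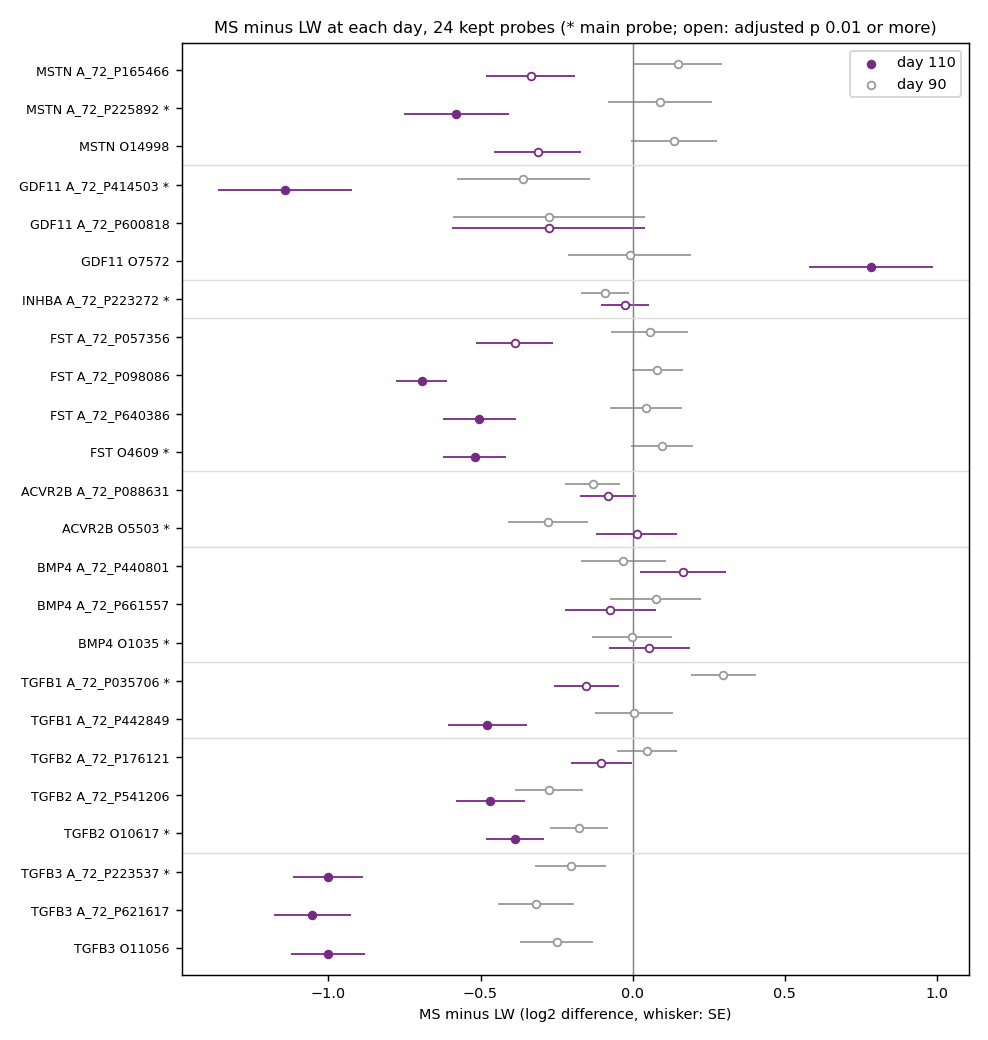
MS minus LW at day 90 and at day 110, as a log2 difference with its SE, for every kept probe of the 9 genes; filled markers passed 1% in limma. No probe passed at day 90, and at day 110 the TGFB3 probes lie near -1.0 while the GDF11 probes lie on both sides of 0.

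Whether the age change itself differed between the breeds was tested as an interaction. It did for 5 of 24 member probes, against 5.95% of all kept probes, and all 5 had the larger fall in MS (3.39%). The 5 belong to 2 genes, and by main probe 2 of 9 genes passed. Of all 2524 called probes 1085 were positive, and with scaling to the 75th percentile in place of quantile normalization 1937 of 3175 were, while 5 member probes were called under either scaling. These were the 3 TGFB3 probes, at -0.80 (SE 0.16, limma adjusted p = 0.000635), -0.74 (adjusted p = 0.00322) and -0.75 (adjusted p = 0.0018), and the follistatin probes O4609 at -0.62 (SE 0.15, adjusted p = 0.00284) and A_72_P098086 at -0.77 (SE 0.12, adjusted p = 8.95e-06). All but O4609 are on the lists that the study chose from these samples. For the main probes of myostatin (-0.67, SE 0.24, adjusted p = 0.0542), GDF11 (-0.78, SE 0.31, adjusted p = 0.0795) and TGFB1 (-0.45, SE 0.15, adjusted p = 0.036) the difference in age change did not pass. The GDF11 value is uncertain, since no late MS array was well above background on that probe. For TGFB2 the difference in age change was -0.21 (SE 0.13) and for ACVR2B 0.29 (SE 0.19), neither past the threshold.

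The 2 crosses were compared to see whether the direction of the cross mattered. They differ in sow breed and in which parent gave each genome, and these cannot be told apart here. At day 90, 0 of 24 member probes differed between MSLW and LWMS in limma (1 at an unadjusted p under 0.05), where 0.5% of all kept probes did. At day 110, 1 of 24 passed, higher in MSLW, against 0.912% of all kept probes in either direction and 0.542% higher. It was myostatin A_72_P165466, at 6.58 to 7.20 in late MSLW fetuses (median 6.89) and 5.87 to 6.74 in late LWMS fetuses (median 6.01), overlapping ranges that differed by 0.70 (SE 0.17, adjusted p = 0.00991). The main probe, the only one of the 24 whose ranges did not overlap (1.1% of all kept probes), differed by 0.64 (SE 0.20, adjusted p = 0.0589), and O14998 by 0.56 (SE 0.16, adjusted p = 0.0431), so that 2 of the 3 myostatin probes missed the threshold. The A_72_P165466 call was lost in 5 other processing settings, at differences of 0.44 to 0.71, and when any one of MSLW replicates 1 to 4 of day 110 was left out, at 0.62 to 0.75.

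In a model of age and the genotypes of both parents with all pairwise interactions, a MS rather than a LW sow went with a larger fall of 2 of 24 member probes. Of all kept probes 3.05% had an age by maternal genotype interaction, and 1.89% a negative one. They were TGFB3 O11056, at -0.50 (SE 0.12, limma adjusted p = 0.00667), and FST A_72_P098086, at -0.34 (SE 0.09, adjusted p = 0.00852). Myostatin was at -0.65 on its main probe (SE 0.18, adjusted p = 0.0142), and the TGFB3 main probe at -0.45 (SE 0.12, adjusted p = 0.0123). For the paternal genotype 1 of 24 passed, against 0.462% of all kept probes and 0.325% with a negative value (58 of all 196 called probes were positive, and 112 of 233 with scaling to the 75th percentile), again FST A_72_P098086, at -0.42 (SE 0.09, adjusted p = 0.00393), while myostatin was at -0.01 (SE 0.18, adjusted p = 0.989). Both maternal calls were lost without MSLW replicate 3 or 5 of day 110, and the paternal call without replicate 2. Maternal genotype and sow cannot be told apart here. The crosses together did not differ from the mean of the parental breeds for any member probe in limma, at day 90 (0 at an unadjusted p under 0.05, 0.0495% of all kept probes called) or at day 110 (3 at an unadjusted p under 0.05, 0.0778% called). At day 110, 32 of all 33 called probes were positive, and 32 of 37 with scaling to the 75th percentile.

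The rest of the pathway was followed in role lists of 121 genes, of which 92 are named on the array and 87 had a kept probe. By main probe, 11 of 87 rose and 31 fell with age in LW, 17 rose and 37 fell in MS, 15 and 38 in LWMS, and 11 and 36 in MSLW. Of all kept probes, 21.8% rose and 23.5% fell in LW, 28.6% and 28.1% in MS, 25.1% and 25.7% in LWMS, and 20.8% and 23.8% in MSLW, and the counts of single role lists stand beside the same shares. The median change was -0.14 in LW and -0.27 in MS, beside 0.03 for all kept probes in each breed. Of the extracellular antagonists and carriers, 9 of 19 fell in each genotype, and of the textbook targets 7 of 17 fell in LW and 12 of 17 in MS. At day 110, 24 of 87 were lower and 7 higher in MS than in LW, beside 15.2% and 13.7% of all kept probes.

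Among other antagonists and carriers, FSTL1, a secreted follistatin-like protein, changed by -1.41 in LW and -2.09 in MS, a difference in age change of -0.68 (limma adjusted p = 4.61e-05). CHRD, the BMP antagonist chordin, did so by -0.71, and the small proteoglycans DCN and BGN, which can bind TGF-beta, by -0.57 and -0.88. SOSTDC1, a BMP antagonist, was lower in late MS than late LW fetuses (adjusted p = 2.43e-06), with measured means of 3.01 and 5.32. Of these arrays 1 of 7 MS and 7 of 9 LW were well above background, so that the size of the difference is uncertain. BGN differed by -1.08 at that age. FSTL3 and WFIKKN2, secreted proteins that bind myostatin, lie outside the naming rule and were chosen after their values were seen. FSTL3 rose in both breeds, by 1.12 (LW, SE 0.15, adjusted p = 1.94e-09) and 0.85 (MS, SE 0.16, adjusted p = 3.41e-06), and WFIKKN2 rose by 0.94 in MS (SE 0.14, adjusted p = 2.58e-08) and stood at 0.28 in LW (adjusted p = 0.0585).

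Of the other ligands, 0 of 9 fell and 1 rose with age in LW, and 1 fell and 2 rose in MS. AMH, best known from the gonad, rose by 0.49 in MS and stood at 0.07 in LW, a difference in age change of 0.42 (limma adjusted p = 0.00412). At day 110, GDF15, a stress-induced ligand, was lower in MS than in LW (adjusted p = 0.000115, measured means 3.09 and 5.18, with 2 of 7 MS and 8 of 9 LW arrays well above background), and BMP5 was at -0.59 in MS minus LW. Of 11 proteases and activators, 6 fell in each genotype. MMP14, a membrane matrix metalloprotease, changed by -1.36 in LW and -2.09 in MS, and PLAU, the urokinase that starts plasmin activation, by -0.65 and -1.25, and both differences in age change passed, at -0.72 and -0.59. ITGAV, an integrin chain that helps release latent TGF-beta, was at -0.24 in MS minus LW at day 110.

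Of 12 receptors and co-receptors, 2 rose and 3 fell in LW and 3 rose and 3 fell in MS, close to the shares of all kept probes. In LWMS 3 rose and 5 fell, beside shares of 25.1% and 25.7%. In MSLW 0 rose and 6 fell, beside 20.8% and 23.8%. ACVR1B, a type I receptor used by activin and myostatin, rose by 1.08 in MS (SE 0.17, limma adjusted p = 2.16e-07), stood at 0.14 in LW, and was 1.07 higher in late MS than late LW fetuses (adjusted p = 7.37e-07). Its signal was dim, with measured means at day 90 and day 110 of 4.63 and 4.77 in LW and 4.76 and 5.84 in MS. It was well above background on 7 of 8 and 8 of 9 LW arrays, and on 7 of 8 and 7 of 7 MS arrays, so that these sizes are uncertain. TGFBR3, the co-receptor betaglycan, was lower in MS at both ages, at -0.70 and -0.85. Of 19 SMADs and regulators, 4 rose and 6 fell in LW and 3 rose and 6 fell in MS, which is not far from those shares either. SMAD2, which carries the myostatin, activin and TGF-beta signal, changed by -0.33 in LW and -0.83 in MS, and PMEPA1, a TGF-beta-induced inhibitor of that step, by -0.72 and -1.56, with differences in age change of -0.49 and -0.84.

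Of the textbook TGF-beta targets, 5 of 17 had a larger fall in MS than in LW, beside 3.39% of all kept probes with a negative difference in age change. The matrix genes POSTN, COL1A1, COL1A2 and FN1 changed by -3.10, -0.97, -1.59 and -2.0 in LW and by -4.12, -2.09, -2.76 and -2.61 in MS. CTGF fell by 1.65 in MS and stood at -0.06 in LW, and was 0.98 higher in MS than LW at day 90 (limma adjusted p = 0.00196). CDKN2B, a cell cycle inhibitor, was lower in MS at both ages, at -1.50 for day 90 and at least 1.17-fold at day 110, where 0 of 7 MS and 4 of 9 LW arrays were well above background (adjusted p = 2.36e-05, measured means 2.61 and 4.25). POSTN differed by -1.52 between late MS and late LW fetuses (adjusted p = 8.19e-09).

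**Figure D5:**
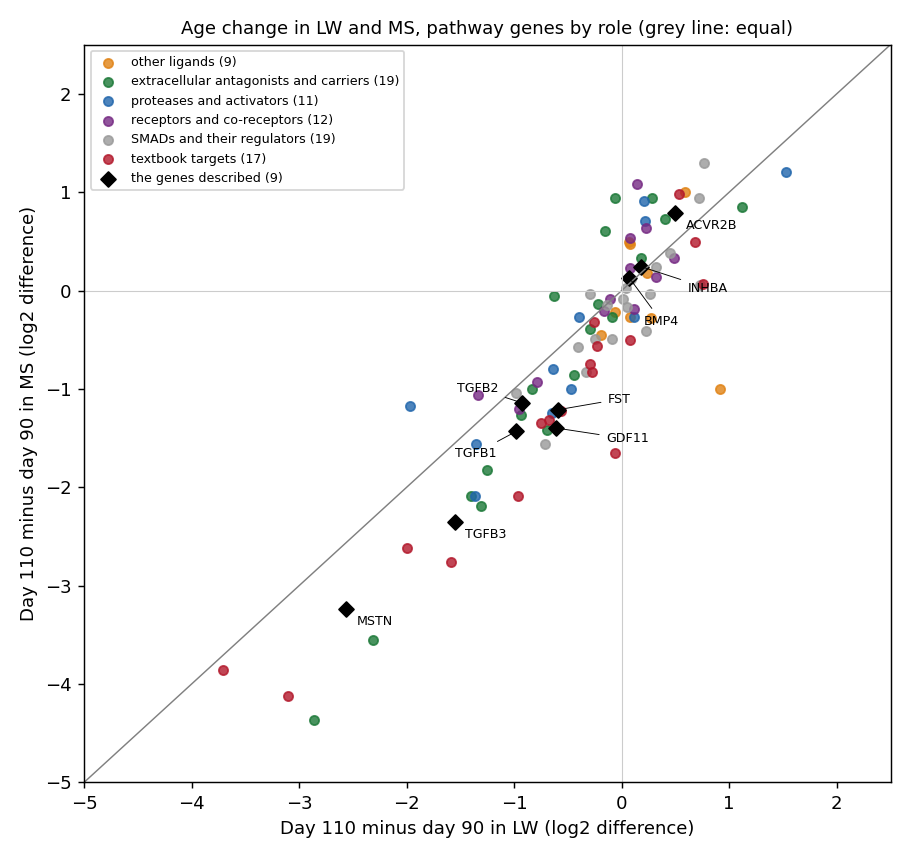
Change from day 90 to day 110 in LW (x axis) and in MS (y axis), as log2 differences of main probes, for the genes of the role lists (coloured by role) and the 9 genes described (black diamonds); the grey line marks equal change. MSTN (-2.56, -3.23) and TGFB3 (-1.55, -2.35) lie below the line and ACVR2B (0.50, 0.79) above it.

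Markers of several cell types moved with these results, those of connective tissue and of dividing cells the furthest by median change. Their counts stand beside shares of all kept probes. With age, 21.8% rose and 23.5% fell in LW, and 28.6% and 28.1% in MS. The shares were 25.1% and 25.7% in LWMS, and 20.8% and 23.8% in MSLW. At day 110, MS was called above LW for 13.7% and below LW for 15.2%. A negative difference in age change was called for 3.39%. Adipocyte, macrophage and leukocyte counts lay near these shares, and no marker list was tested against them. Of 12 fibroblast and connective tissue markers, 11 fell with age in LW (median -1.08) and 11 in MS (median -1.76), 9 were lower in MS at day 110, and 7 had a larger fall in MS. The log2 of their summed intensity ranged from 18.86 to 19.21 in LW and 18.98 to 19.12 in MS at day 90, and from 17.48 to 18.11 in LW and 16.86 to 17.18 in MS at day 110. COL1A1, COL1A2 and DCN are on this marker list and on the pathway lists. Of 8 markers of cycling cells, 7 fell and 1 rose in each breed (median -2.86 in LW and -3.72 in MS). At day 110, 5 were lower in MS (median -0.85), and 2 had a larger fall in MS. The mean log2 of their summed intensity fell less. It went from 13.74 at day 90 to 12.85 at day 110 in LW and from 13.87 to 12.95 in MS. By this mean, late MS fetuses did not lie below late LW fetuses. Of 7 endothelial markers, 5 fell and 1 rose in each genotype (median -0.84 in LW and -1.14 in MS), and 2 were lower in MS at day 110. Of 7 satellite cell and myoblast markers, 4 fell and 2 rose in each breed. Of 5 erythroid markers, 2 fell in LW and 3 in MS, and of 8 macrophage and leukocyte markers 3 fell in LW, while 2 fell and 1 rose in MS. Of 6 adipocyte markers, 2 rose in LW, and 2 rose and 2 fell in MS. The mean log2 of their summed intensity was 14.85 at day 90 and 15.61 at day 110 for LW fetuses, and 14.23 and 15.45 for MS fetuses. Muscle fibre markers mostly rose. Of 14, 8 rose and 1 fell in LW (median 0.32), and 9 rose and 2 fell in MS (median 0.30). In LWMS 10 rose and 1 fell, and in MSLW 9 rose and 1 fell. MS was above LW for 5 of them at day 110 and below LW for 1. The log2 of their summed intensity ranged from 21.38 to 21.55 at day 90 and from 21.58 to 21.68 at day 110 for LW fetuses, and for MS fetuses from 21.47 to 21.53 and then 21.63 to 21.69, so that the ages did not overlap in either breed. The part of these markers in the results for myostatin, follistatin and the TGF-beta ligands was not tested.

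Some named genes followed the members closely across the 61 fetuses, by Pearson correlation over fetuses that share age and genotype groups, slide and normalization, given as a description. MSTN was nearest to LIMA1 (r = 0.97, and 0.41 after group and slide means were removed) and CHODL (0.97 and 0.48). FST was nearest to ECM2 (0.95 and 0.75) and COL20A1 (0.95 and 0.62), TGFB2 to COL5A2 (0.96 and 0.64) and FKBP10 (0.96 and 0.65), and TGFB3 to FKBP10 (0.98 and 0.65) and ANXA2 (0.98 and 0.71). TGFB1 was nearest to ZC3H12C (0.99 and 0.88) and GNAI2 (0.97 and 0.67). INHBA (EIF2B4, 0.79 and 0.44), ACVR2B (GSTK1, 0.83 and 0.34) and BMP4 (NFE2L1, 0.62 and 0.35) had less similar nearest genes, and GDF11 was too dim for this comparison. Among the members, MSTN and TGFB3 correlated at 0.94 over all fetuses and at 0.01 after group and slide means were removed, while FST and TGFB2 correlated at 0.91 and 0.54.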

How the data were processed

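The authors deposited scanner intensity per spot (Agilent Feature Extraction 10.10.1.1, per the labels), not normalized between arrays, and a table of log2 values, quantile normalized and filtered by the authors, that was used as an alternative. Its rows were matched to scanner rows by number, which the values bore out (median correlation across arrays 0.988). Here, background-corrected intensity was quantile normalized and log2 transformed, non-uniform spots (4 to 802 per array) were left out, and repeated spots averaged. Probes well above background on 80% of the arrays of at least 1 group were kept. The 8 groups were fitted with limma 3.58.1 in R 4.3.3, adjusted by Benjamini-Hochberg at 1%, and a bound was used where no array of a group was well above background. For a bound, a value below the lowest well-above-background value of its array was raised to that value. The scanner software marks each spot singly, and a brighter spot can fail the mark. The words at least therefore hold under this rule and are not a strict limit. The authors' random sow effect was left out, since the labels do not give the sow. P-values measure the spread between fetuses, with 1 estimate per probe over all 8 groups, and treat littermates as independent. The sows were fewer than the fetuses, so that p-values can be too small. The number of sows limits precision as well as the number of arrays. Named pathway genes were those past 1% for the difference in age change, and the 2 largest day 110 breed differences past 1% per role list. Members and lists were chosen with earlier results of these data known. Alternatives changed the signal, background correction, scaling, filter, slide block, samples and probe choice. Some probe sequences are not reported here.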

Additional observations from a re-analysis of the deposited data

Results flagged for a closer look

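ACVR2B O5503 in LW replicate 5 of day 90 lay far above the other fetuses of its group, with a gap of 0.70 of the group's whole range. MSLW replicate 7 of day 90 lay above its group in the same way, with a gap of 0.54. Of 72 groups checked, 2 had such a sample, and chance gives about 1 in 20 groups. The other ACVR2B probe, with the same 60 bases, showed neither.

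By an interaction test, 2 main probes had unlike age changes in the purebreds, namely FST at -0.62 (MS minus LW) and TGFB3 at -0.80 on the log2 scale.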

How the results depend on the processing

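Recomputed under each alternative, values for single genes and probes kept their side of the threshold 705 times, lost a call 32 times and gained one 17 times. No call changed direction. Values called in neither setting were counted as kept even where their sign changed. The number of member probes called between MS and LW at day 90 went from 0 to 1 with the deposited values, the median spot signal or normexp. Between MSLW and LWMS at day 110 it went from 1 to 0 with those 3 settings, without the filter and with the slide as a block, and lay between 0 and 1 when MSLW fetuses of day 110 were left out 1 at a time. For age by maternal genotype it went from 2 to 0 without the filter and to 4 with the slide as a block or with probes well above background on all arrays, and lay between 0 and 3 without single MSLW fetuses. For age by paternal genotype it went from 1 to 0 with the deposited values, the median signal or normexp, and lay between 0 and 1 without single MSLW fetuses. The cause was not tested. Scaling to the 75th percentile moved the median of all probes for the age change in MS from 0.03 to 0.12. No paired analysis was possible because the labels do not give the litter of a fetus. The labels give no replicate numbers either, and those used here were assigned within each group in sample order. The 2 ACVR2B fetuses left out were chosen after seeing the data. Dim signal limits GDF11, where 0 of 7 late MS arrays were well above background on A_72_P414503. The sow and litter of each fetus were not used.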
